A study of Mus musculus with 9 samples.

Results

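A set of 8 genes is described here across 9 RNA-seq libraries of a mouse mesenchymal stromal cell (MSC) line. They are Tigit, an inhibitory receptor gene, the ligand and nectin genes Pvr, Nectin1, Nectin2 and Nectin3, and the checkpoint ligand genes Cd274, Pdcd1lg2 and Cd276. They were taken by name from a deposited table of 21959 genes, and all 8 had a row. The set was chosen by a measured value, the difference of Tigit between cells given fluid from TNBS-treated mice and cells given fluid from control mice, whose log2 fold change ranked 5 of 10537 genes by size. The levels of Tigit are therefore a description and carry no test.

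The cells were a bone marrow MSC line labelled BMMSC and marked SV40, grown in DMEM/F12 with 10% serum. The 3 groups of 3 libraries each were sequenced after 24 h of exposure. The first received peritoneal fluid of control mice (control PF), the second received peritoneal fluid of mice treated for 3 days with TNBS (TNBS PF), a hapten that causes colitis, and the last received PBS. All groups used that same line. The labels give no strain or age of the mice, and do not say whether replicates were separate cultures or separate fluids. The p-values therefore measure only the spread between these libraries, which may be technical.

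TIGIT is a receptor of T cells and natural killer (NK) cells that dampens their activity when it binds PVR (CD155) on a neighbouring cell. In humans it also binds nectin-2 more weakly, while the receptor CD226 competes for the same ligands and activates the cell. Nectins are adhesion molecules that join cells and are tied to actin through afadin. PD-L1 (Cd274) and PD-L2 (Pdcd1lg2) are the ligands of the receptor PD-1, PD-L1 is among the molecules through which MSCs are known to restrain T cells, and B7-H3 (Cd276) is a related surface protein.

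Levels are given in FPKM, fragments per kilobase of exon scaled to library size, as deposited. The number of fragments behind each level was recovered from the FPKM and the exon lengths of GENCODE M21. The 3 TNBS PF libraries held 22918866 to 25591791 assigned fragments, and the other 6 held fewer, 17863070 to 21520692. Differences are log2 fold changes of FPKM with 1 added, which understates the change of low genes. They come from 1 limma fit over all 9 libraries and the 10537 genes that reached FPKM 1 in at least 3 libraries, with p-values adjusted by Benjamini-Hochberg over all of them. Intervals are 95% intervals, not adjusted for the number of genes. Of the 8 genes, 7 passed that filter, and Pdcd1lg2 did not. Since these are bulk libraries, fewer cells of a type and less RNA per cell cannot be told apart.

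Tigit (ENSMUSG00000071552, chr16:43648867-43664146 on the minus strand, mm10) was transcribed in every library and was highest in the cells given TNBS PF. Its promoter is shown because Tigit had the largest difference of the 8 genes, and that of Nectin2, the gene with the highest level, is shown beside it. Both are the 250 bases before the gene's start in RefSeq (GRCm38.p6), at chr16:43664185-43664434 and chr7:19749574-19749823, both on the minus strand, written 5′ to 3′ with each CG dinucleotide in capitals. The Tigit window lies before the gene span given above. RefSeq's Nectin2 start lies 910 bases inside the GENCODE span of that gene, so its window is within that span, as are those of Nectin3 and Cd276.
Tigit: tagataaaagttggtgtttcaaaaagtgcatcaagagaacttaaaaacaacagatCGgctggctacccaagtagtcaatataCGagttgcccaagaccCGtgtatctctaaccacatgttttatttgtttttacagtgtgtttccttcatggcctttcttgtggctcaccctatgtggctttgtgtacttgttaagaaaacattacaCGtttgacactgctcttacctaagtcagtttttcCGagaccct
Nectin2: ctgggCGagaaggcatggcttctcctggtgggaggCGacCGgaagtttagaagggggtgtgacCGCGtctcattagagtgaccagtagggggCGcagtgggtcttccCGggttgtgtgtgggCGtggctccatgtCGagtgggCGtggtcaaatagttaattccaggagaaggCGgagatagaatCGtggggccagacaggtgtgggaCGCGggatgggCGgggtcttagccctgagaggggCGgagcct
The Tigit window held 5 CG dinucleotides at 40.0% GC, against 16 at 62.0% in the Nectin2 window. Of 32841 promoter windows of the same length, 11.8% had a lower GC content than Tigit's and 76.7% had a lower one than Nectin2's. The median window had 6 CG dinucleotides at 52.4% GC. Of the 8 genes, 6 had an entry, and Pvr and Nectin1 did not. The windows of Nectin3 and Cd276 were the richest of the 6, at 73.2% GC with 30 CG dinucleotides and 77.6% GC with 29. Cd274 had 50.4% GC with 11, and Pdcd1lg2 48.4% with 3. A total of 5 motifs were searched on both strands, namely TATAAA (the TATA box), TGANTCA (AP-1), GGAATG (TEAD), the core of the interferon-stimulated response element and TTCNNNGAA (STAT sites). None of the 6 windows held any of them, while 12.4%, 6.75%, 12.6%, 2.98% and 7.02% of all windows did.

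In the control PF libraries Tigit stood at 8.942, 8.073 and 8.191 FPKM, from 163, 138 and 162 fragments. The TNBS PF libraries held 14.04, 13.18 and 14.53 FPKM, from 324, 310 and 306 fragments. The PBS libraries held 7.066, 7.504 and 9.423 FPKM, from 116, 124 and 176 fragments. All 3 TNBS PF libraries lay above all 6 others, while the control PF and PBS libraries overlapped, with PBS replicate 3 above every control PF library. The mean level was 13.9 ± 0.682 FPKM (SD, n = 3) with TNBS PF, 8.40 ± 0.471 with control PF and 7.998 ± 1.25 with PBS. TNBS PF exceeded control PF by 0.67 on the log2 scale, a ratio of means of 1.66, and exceeded PBS by 0.74, a ratio of 1.74. Control PF and PBS differed by 0.07. Over all tested genes, 13.6% lay higher without overlap when TNBS PF was set against control PF, and 15.5% did so against PBS. The depth of the libraries moved with this difference, as the TNBS PF libraries were the deepest, and its part was not tested. Leaving out any 1 library gave differences from control PF of 0.64 to 0.71, which is no independent support, since this difference chose the set. The mean level of Tigit exceeded that of 54.9% of the tested genes. No annotated gene overlaps Tigit, and its nearest coding neighbour Zbtb20, which lies 6265 bp away on the opposite strand, stood at 0.87 to 1.36 FPKM.

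**Figure D1:**
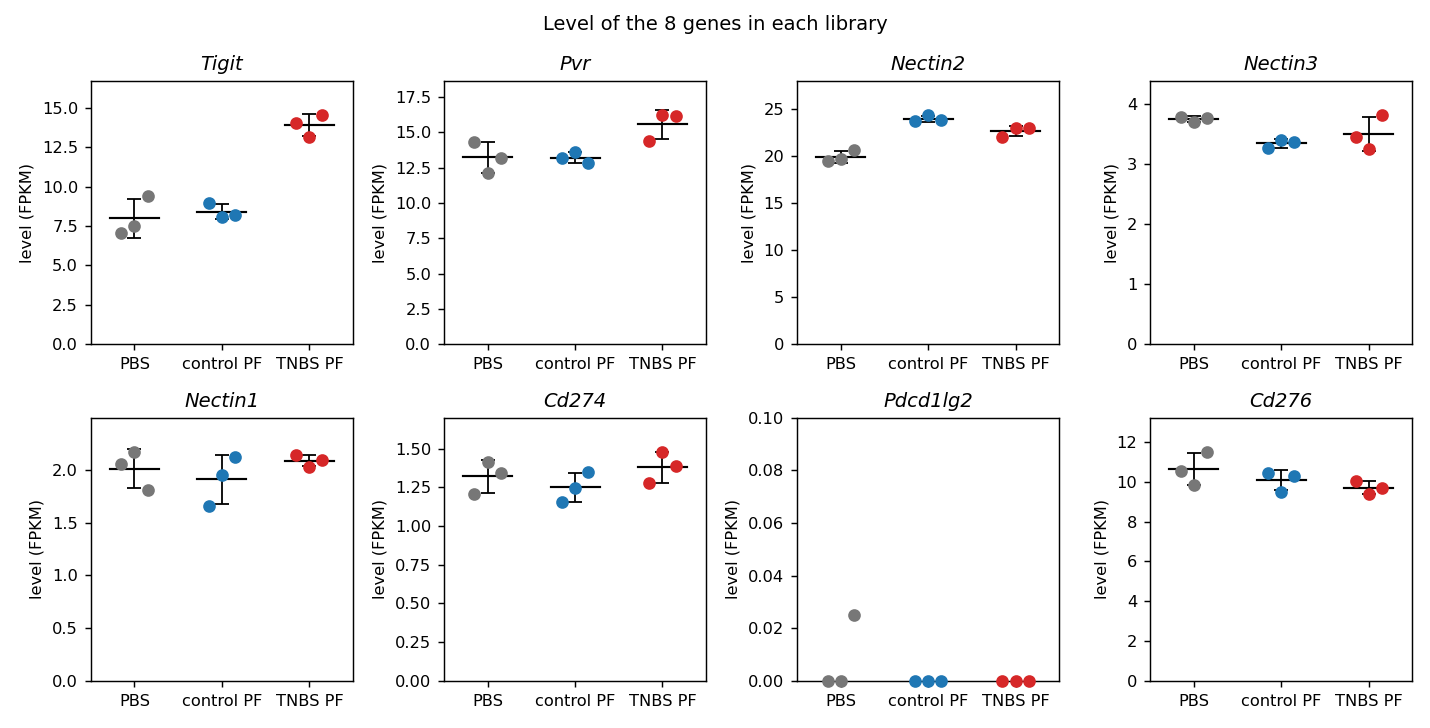
Level of the 8 genes in each of the 9 libraries, in FPKM on linear axes that start at 0. Points are libraries, the horizontal line is the group mean and the bar is 1 SD (n = 3), both left out for Pdcd1lg2. Tigit with TNBS PF, at 13.2 to 14.5 FPKM, stands above the other 6 libraries, at 7.07 to 9.42 FPKM.

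Tigit is normally a gene of T and NK cells, so the markers of those cells were read beside it. Of 25 such markers, 22 were in the table, all 22 stayed under FPKM 1 in every library, and 12 were at 0 in all 9, among them Cd3d, Cd3g, Cd8a, Ncr1, Gzmb and Prf1. Ptprc, the pan-leukocyte gene CD45, was at 0 in 8 libraries and at 0.00306 FPKM in 1. Cd3e, a chain of the T cell receptor complex, was likewise at 0 in 8 libraries. The summed level of the 22 markers was 0.709 to 0.986 FPKM with TNBS PF, 0.722 to 1.13 with control PF and 0.545 to 0.909 with PBS. The group ranges of that sum overlapped, and the part of such cells in the level of Tigit was not tested. Lck, a kinase of T cells, carried most of the sum, at 0.516 to 0.973 FPKM.

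**Figure D2:**
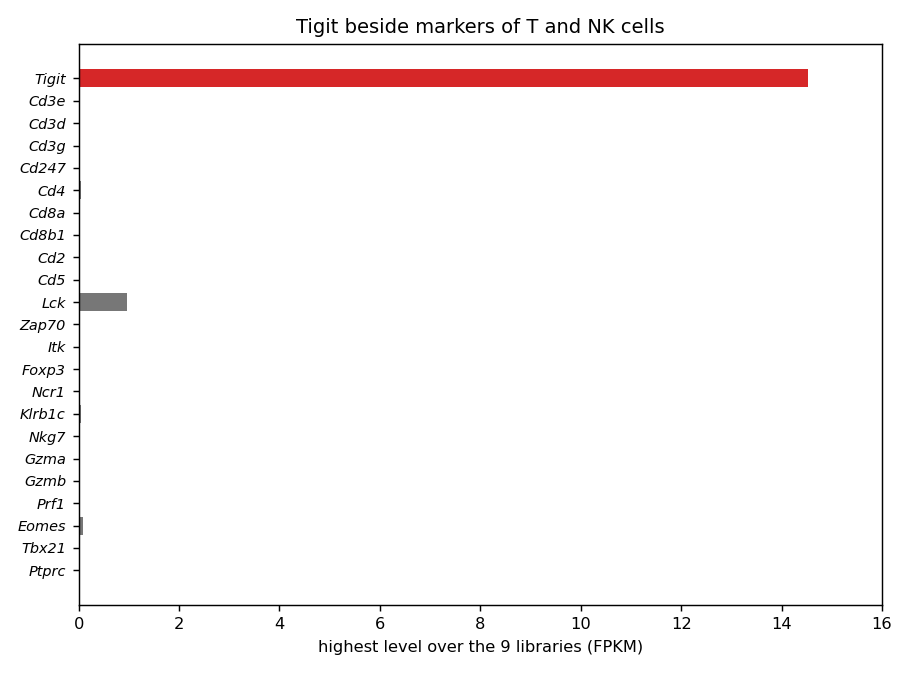
Highest level over the 9 libraries of Tigit (red) and of the 22 T and NK cell markers in the table (grey), in FPKM on a linear axis from 0. Tigit reached 14.5 FPKM, and Lck, the highest marker, reached 0.973 FPKM.

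Beside Tigit, 6 of the genes were tested, and 1 of the 6, Pvr, passed an adjusted p of 0.05 between TNBS PF and control PF, as higher with TNBS PF. Of all tested genes, 10.6% were called in that comparison, 5.15% as higher and 5.45% as lower. Since the set was proposed from this comparison, nothing is read from that count. Between control PF and PBS, 1 of the 6 was called, Nectin2, as higher, beside 2.15% of all tested genes in either direction, 1.02% as higher and 1.14% as lower. Between TNBS PF and PBS, 2 of the 6 were called, Pvr and Nectin2, both higher, beside 16.7% in either direction, 7.8% as higher and 8.88% as lower. The comparisons share libraries: both comparisons with TNBS PF use the same TNBS PF libraries, and both with PBS use the same PBS libraries.

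Pvr (ENSMUSG00000040511, chr7:19903578-19921160 on the minus strand) encodes CD155, the ligand that TIGIT binds most strongly. It stood at 14.4, 16.2 and 16.1 FPKM in the TNBS PF libraries, from 2208, 2540 and 2265 fragments. The control PF libraries held 13.2, 13.6 and 12.9 FPKM and the PBS libraries 14.3, 12.2 and 13.2 FPKM. The TNBS PF libraries lay above all others, as 13.6% and 15.5% of tested genes did against control PF and PBS, but by little, since the lowest TNBS PF library, at 14.37 FPKM, was next to PBS replicate 1 at 14.33 FPKM. Pvr rose by 0.22 on the log2 scale with TNBS PF against control PF (SE 0.0586, interval 0.0923 to 0.346, adjusted p = 0.0314), a ratio of means of 1.18. Against PBS it rose by 0.22 as well (interval 0.0937 to 0.347, adjusted p = 0.0218). Control PF and PBS differed by 0.0013 (interval -0.125 to 0.128, adjusted p = 0.994). The call against control PF was lost under 8 of 19 alternatives, with adjusted p from 0.00249 to 0.117 over all 19. It was lost when control PF replicate 1, 2 or 3 was left out (adjusted p = 0.0778, 0.052 and 0.101) and when TNBS PF replicate 2 or 3 was (0.117 and 0.115). The call against PBS was lost under 5, among them leaving out TNBS PF replicate 2 or 3 (0.0854 and 0.0827) and PBS replicate 2 or 3 (0.0706 and 0.0532).

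Nectin2 (ENSMUSG00000062300, chr7:19716644-19750483 on the minus strand), which encodes the adhesion molecule CD112, lies on the same chromosome as Pvr. It was lowest with PBS and highest with control PF. The PBS libraries held 19.5, 19.7 and 20.6 FPKM, from 1215, 1235 and 1465 fragments. The control PF libraries held 23.7, 24.3 and 23.8 FPKM, and the TNBS PF libraries 22.09, 23.04 and 23.01 FPKM. No pair of groups overlapped, and over all tested genes 9.33% lay higher without overlap with control PF than with PBS, 15.5% higher with TNBS PF than with PBS and 18.2% lower with TNBS PF than with control PF. In either direction these shares were 18.6%, 35.3% and 31.8%. Nectin2 rose by 0.26 on the log2 scale with control PF against PBS (SE 0.0352, interval 0.18 to 0.332, adjusted p = 0.00234), a ratio of means of 1.2. With TNBS PF it rose by 0.18 against PBS (interval 0.105 to 0.257, adjusted p = 0.0038). Both calls held under all 19 alternatives, with adjusted p up to 0.015 and 0.0202. Between TNBS PF and control PF it differed by -0.07 (interval -0.151 to 0.00157, adjusted p = 0.208). Its exons share 135 of 3494 bases with the opposite-strand gene Gm20512, and since no source names the strand setting of the counting, reads of the pair cannot be told apart there.

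Nectin3 (ENSMUSG00000022656, chr16:46387706-46498525), a partner of nectin-1 and nectin-2 at cell contacts, passed the test in no comparison. The PBS libraries held 3.78, 3.69 and 3.76 FPKM, the control PF libraries 3.26, 3.40 and 3.36, and the TNBS PF libraries 3.44, 3.25 and 3.80. All PBS libraries lay above all control PF libraries, while TNBS PF spanned both. Of all tested genes, 9.32% lay lower without overlap with control PF than with PBS. Control PF differed from PBS by -0.13 on the log2 scale (interval -0.254 to -0.00353, adjusted p = 0.308). TNBS PF differed by 0.05 from control PF (adjusted p = 0.643) and by -0.08 from PBS (adjusted p = 0.386).

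Nectin1 (ENSMUSG00000032012, chr9:43743984-43807461) is an adhesion molecule of epithelial and neuronal contacts. It was at 1.66, 1.95 and 2.12 FPKM with control PF, 2.14, 2.03 and 2.10 with TNBS PF, and 2.06, 2.17 and 1.81 with PBS. The 3 groups overlapped. The log2 differences were 0.09 between TNBS PF and control PF (interval -0.0708 to 0.248), -0.05 between control PF and PBS (-0.209 to 0.11) and 0.04 between TNBS PF and PBS (-0.121 to 0.198), with adjusted p of 0.501, 0.807 and 0.766.

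Cd274 (ENSMUSG00000016496, chr19:29367455-29388095), which encodes PD-L1, was low in every group and passed the test in none of the 3 comparisons. It was at 1.16, 1.25 and 1.35 FPKM with control PF, from 83, 84 and 105 fragments. The TNBS PF libraries held 1.28, 1.48 and 1.39 FPKM and the PBS libraries 1.21, 1.41 and 1.35 FPKM, so the groups overlapped. Its mean level exceeded that of 4.48% of the tested genes. TNBS PF differed from control PF by 0.08 on the log2 scale (interval -0.0693 to 0.231, adjusted p = 0.513). Control PF differed from PBS by -0.04 (adjusted p = 0.819) and TNBS PF from PBS by 0.04 (adjusted p = 0.768). An opposite-strand gene, AC119228.1, shares 511 of 3622 exonic bases with it.

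Pdcd1lg2 (ENSMUSG00000016498, chr19:29410919-29471161), the gene of PD-L2, lies 22824 bp from Cd274 on the same strand. It was at 0 in 8 libraries and at 0.0251 FPKM, 1 fragment, in PBS replicate 3. The 95% Poisson interval of a count of 0 runs up to 3.69 fragments, for counting error only. In the libraries at 0, a count of 3 fragments would be 0.0598 to 0.0856 FPKM. No difference between groups was detectable at this depth.

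Cd276 (ENSMUSG00000035914, chr9:58524298-58555437), the gene of B7-H3, was the most abundant of the 3 checkpoint ligands and passed the test in no comparison. It was at 10.4, 9.51 and 10.3 FPKM with control PF, 10.0, 9.39 and 9.66 with TNBS PF, and 10.6, 9.85 and 11.5 with PBS. The TNBS PF libraries overlapped both other groups. TNBS PF differed by -0.05 from control PF (interval -0.169 to 0.0703, adjusted p = 0.628) and by -0.12 from PBS (interval -0.239 to 0.000517, adjusted p = 0.163). Control PF differed from PBS by -0.07 (adjusted p = 0.598). The ratio of Cd276 to Cd274 was 8.09 with PBS, 8.1 with control PF and 7.06 with TNBS PF. Its exons share 416 of 3658 bases with the opposite-strand gene Gm10657.

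**Figure D3:**
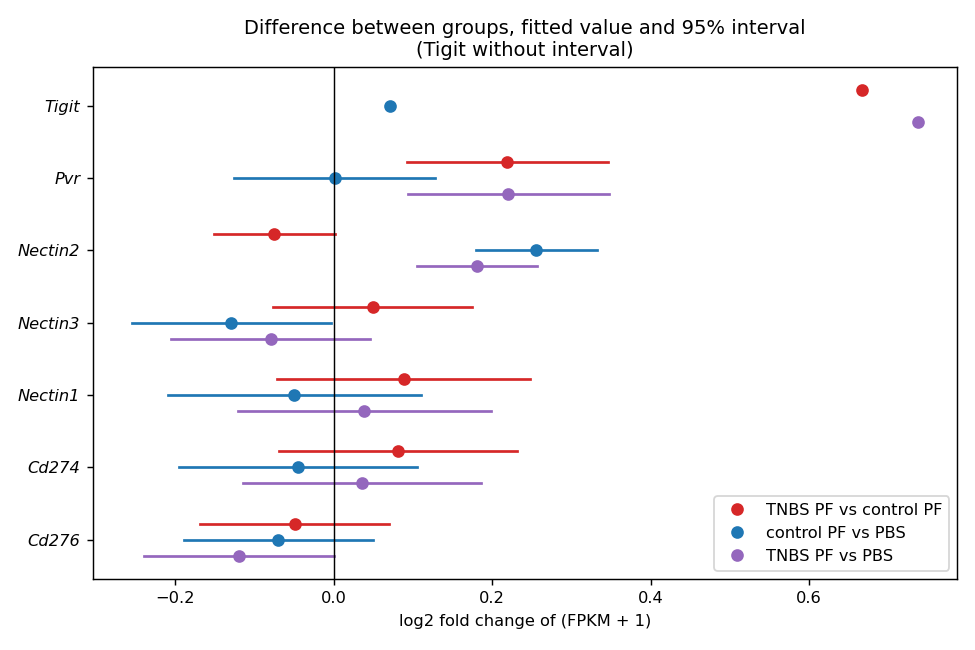
Log2 fold change of FPKM with 1 added for the 7 tested genes in 3 comparisons. Points are fitted values and bars 95% intervals, drawn for every gene except Tigit, which carries no test. Tigit lies at 0.67 and 0.74 in the comparisons with TNBS PF, and Pvr and Nectin2 lie between -0.07 and 0.26.

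By the levels as deposited, the order differed with TNBS PF only in the place of Tigit. The difference of Tigit chose the set, so nothing is read from that shift. In PBS the means ran from Nectin2 (19.9 FPKM) through Pvr (13.2), Cd276 (10.6), Tigit (7.998), Nectin3 (3.74) and Nectin1 (2.01) to Cd274 (1.32), and no neighbours in that order overlapped. The order was the same with control PF. With TNBS PF Tigit stood above Cd276, at 13.2 to 14.5 against 9.39 to 10.04 FPKM, and overlapped the Pvr range of 14.4 to 16.2. The order of Pvr and Nectin2 depends on the length used. Counted over the longest coding transcript instead of all exons, 2905 against 6122 bases for Pvr, the mean level of Pvr was 27.9 FPKM in PBS, 27.9 with control PF and 32.8 with TNBS PF, against 25.5, 30.6 and 29.0 for Nectin2, so that Pvr stood above Nectin2 in PBS and TNBS PF and below it with control PF.

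In the mix of the 4 ligand and nectin transcripts, control PF stood apart in the shares of Nectin2 and Pvr, and PBS in that of Nectin3. Nectin2 made up 56.2% to 56.8% of the summed FPKM with control PF, against 49.1% to 52.3% with PBS and 51.1% to 52.6% with TNBS PF. Pvr made up 31.2% ± 0.577 (SD, n = 3) with control PF, 34.0% ± 2.0 with PBS and 35.5% ± 1.14 with TNBS PF. The control PF range did not overlap the other two for either gene. The 2 shares are not independent, since a higher level of Nectin2 alone lowers the share of Pvr. The mean level of Pvr itself was 13.22 FPKM with control PF and 13.23 with PBS. Nectin3 made up 9.53% to 9.8% with PBS, above its 7.79% to 7.97% with control PF and 7.29% to 8.44% with TNBS PF. The ratio of Nectin2 to Pvr was accordingly 1.81 ± 0.0361 with control PF, 1.51 ± 0.136 with PBS and 1.46 ± 0.0666 with TNBS PF, on the all-exon lengths. The summed level was 42.4 ± 0.791 FPKM with control PF, 43.9 ± 1.61 with TNBS PF and 38.9 ± 1.08 with PBS. These shares describe the libraries and were not tested.

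**Figure D4:**
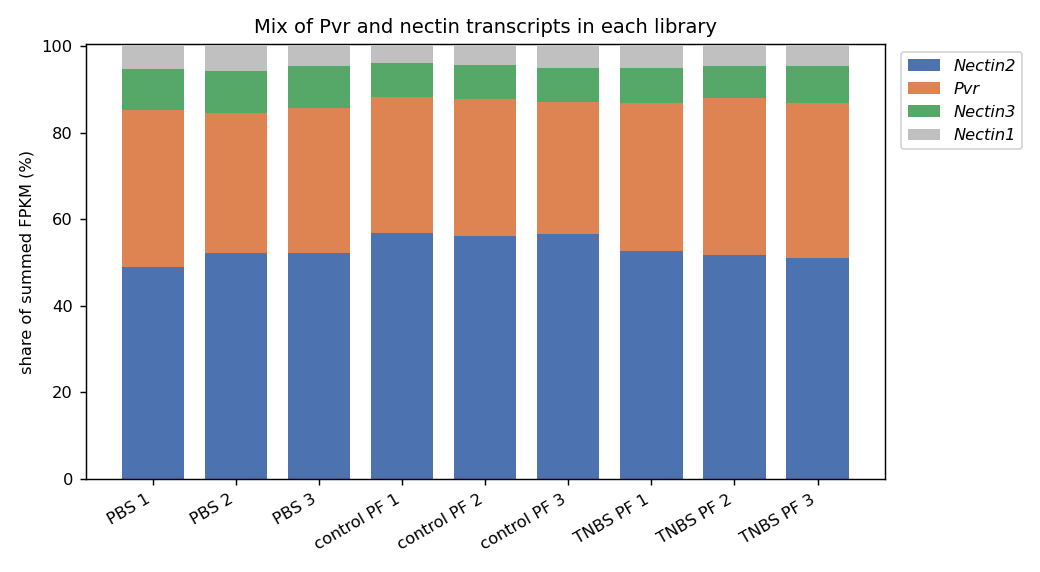
Share of Nectin2, Pvr, Nectin3 and Nectin1 in their summed FPKM in each of the 9 libraries, in percent, stacked from 0 to 100. Nectin2 takes 56.2% to 56.8% in the control PF libraries and 49.1% to 52.6% in the other 6.

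The other genes of the nectin network were mostly at or near 0. Of 10 listed genes, 8 stayed under FPKM 1 in all 9 libraries, and 3 of them, Cd226 (the activating rival of TIGIT), Cadm1 and Cadm3, were at 0 in all 9. Cd96, another PVR receptor, did not exceed 0.0451 FPKM, Pvrig, an inhibitory receptor of nectin-2, 0.228, and Nectin4 0.172. The 2 tested genes, Afdn and Cadm4, passed in no comparison. Afdn, the gene of afadin, was at 16.7 to 18.5 FPKM, and its difference between TNBS PF and control PF was 0.03 (adjusted p = 0.728). The list medians of the log2 difference were -0.0558, 0.0135 and -0.0423 for TNBS PF against control PF, control PF against PBS and TNBS PF against PBS, beside -0.0142, 0.000946 and -0.0114 over all tested genes.

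Among 31 further checkpoint and costimulation genes, 9 were tested. PD-1 (Pdcd1), the receptor of both PD-L1 and PD-L2, was at 0 in all 9 libraries, as were Cd86, Ctla4, Icos and Btla. Other genes of the list that were not tested were above 0 in every library, such as Havcr2 at 0.581 to 1.08 FPKM and Lag3 at 0.382 to 0.908 FPKM. With TNBS PF against control PF none of the 9 rose and 2 fell, beside 5.15% and 5.45% of all tested genes. Vsir, which encodes the inhibitory protein VISTA, fell by 0.36 on the log2 scale (4.32 against 5.84 FPKM, adjusted p = 0.000687). Cd47, the anti-phagocytic signal, fell by 0.14 (34.6 against 38.1 FPKM, adjusted p = 0.0362), a call lost under 10 of 19 alternatives with adjusted p up to 0.125, among them leaving out any control PF or any TNBS PF library. With control PF against PBS none was called, the smallest adjusted p being 0.0602 for H2-T23, a nonclassical MHC gene, at a log2 difference of -0.19. With TNBS PF against PBS none rose and 3 fell, beside 7.8% and 8.88% of all tested genes, namely H2-T23 by 0.31 (adjusted p = 0.000899), Vsir by 0.26 (adjusted p = 0.00422) and Lgals9, galectin-9, by 0.11 (adjusted p = 0.0349, lost under 9 of 19 alternatives, among them leaving out any TNBS PF library or PBS replicate 1 or 3). The list medians were -0.0727, 0.0336 and -0.105 in the same order of comparisons.

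Of 14 genes known to act on PD-L1, 13 were tested. Stat3, a transcription factor downstream of interleukin-6 family cytokines, fell by 0.18 with TNBS PF against control PF (13.5 against 15.5 FPKM, adjusted p = 0.00625), and no other gene of the list passed there, beside 10.6% of all tested genes. Socs3, a feedback inhibitor of the same signal, rose by 0.36 with control PF against PBS (17.9 against 13.8 FPKM, adjusted p = 0.0226), a call lost under 5 of 19 alternatives, among them leaving out control PF replicate 1, 2 or 3. With TNBS PF against PBS, 5 of the 13 fell and 1 rose, beside 8.88% and 7.8% of all tested genes. Among those that fell were Stat3 by 0.16 (adjusted p = 0.0112), Cmtm4, a stabiliser of PD-L1, by 0.15 (adjusted p = 0.0133), Irf1, an activator of PD-L1, by 0.14 (adjusted p = 0.031), and Jak1, a kinase of cytokine receptors, by 0.13 (adjusted p = 0.00716). The calls of Irf1 and Cmtm4 were lost under 8 and 2 of 19 alternatives, for Irf1 when any TNBS PF library or PBS replicate 2 or 3 was left out and for Cmtm4 without TNBS PF replicate 2 or PBS replicate 1. Spop, an adaptor that marks PD-L1 for degradation, rose by 0.12 (adjusted p = 0.0438), a call lost under 13 of 19 alternatives, among them leaving out any TNBS PF library, PBS replicate 1 or 2 or control PF replicate 3. The list medians were -0.0527, -0.0188 and -0.0709, and Cd274 itself passed in no comparison.

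**Figure D5:**
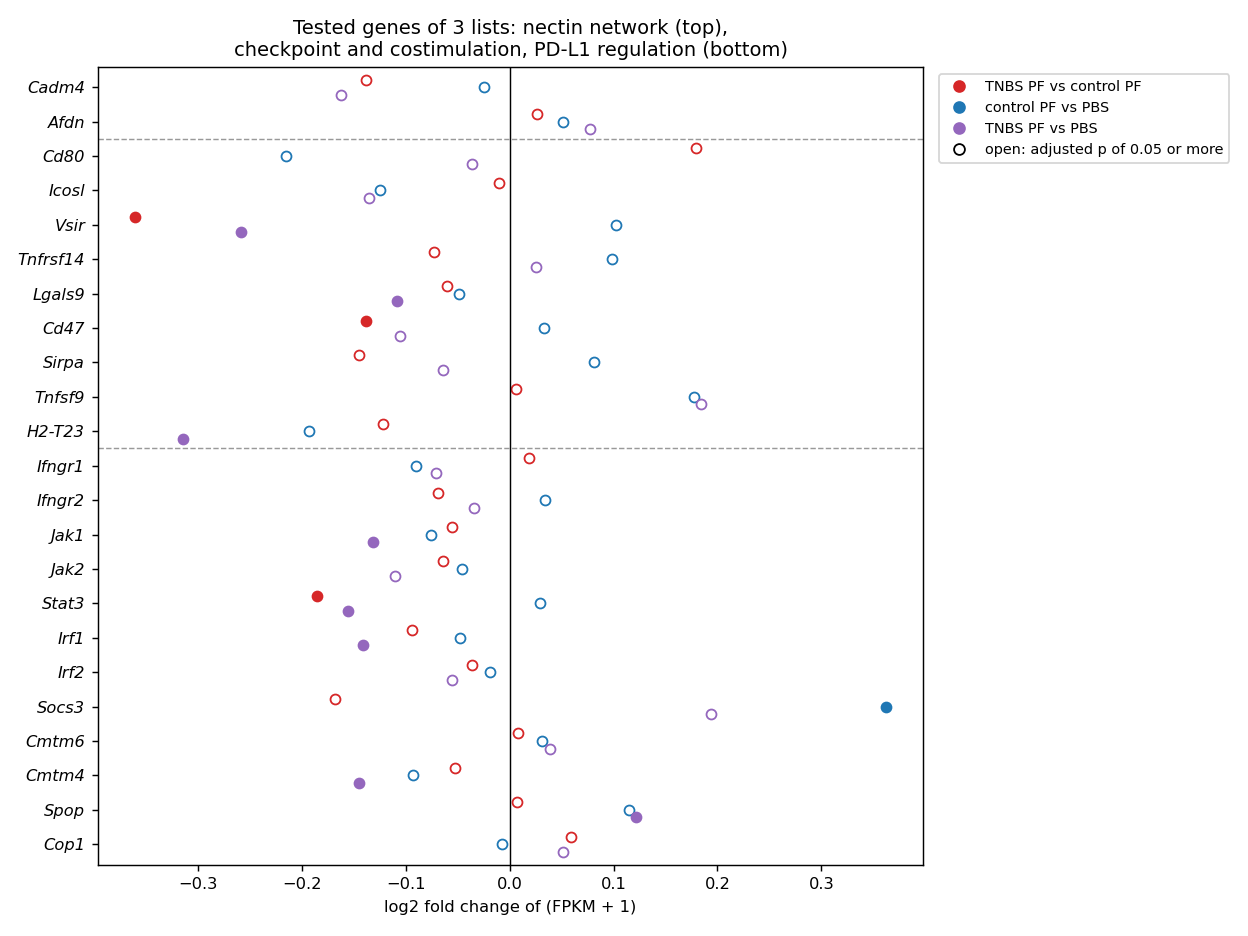
Log2 fold change of FPKM with 1 added for 23 tested genes of the nectin network, the checkpoint and costimulation list and the PD-L1 list, in 3 comparisons. Filled points passed an adjusted p of 0.05 and open points did not. Vsir and Stat3 lie below 0 as filled points in both comparisons with TNBS PF.

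Levels of mesothelial, of macrophage and B cell, and of stromal markers were read beside Tigit and Pvr. The part of such cells in the results of Tigit and Pvr was not tested. The summed level of 12 mesothelial markers was 52.55 to 57.81 FPKM with TNBS PF, 46.1 to 47.5 with control PF and 47.7 to 48.45 with PBS. Of the 4 that were tested, 3 rose with TNBS PF against control PF, Msln by 0.24 (adjusted p = 0.0043), Krt19 by 0.59 (adjusted p = 0.0154) and Krt18 by 0.28 (adjusted p = 0.0497), beside 5.15% of all tested genes. The other, Slpi, differed by -0.25 (adjusted p = 0.12). The calls of Krt19 and Krt18 were lost under 5 and 15 of 19 alternatives, for Krt19 without control PF replicate 2 or 3 or TNBS PF replicate 1 or 2, and for Krt18 without any 1 library except control PF replicate 3. Muc16 was at 0 in all 9 libraries, and 8 of the 12 stayed under FPKM 1. Msln carried most of the mesothelial sum, at 35.2 to 44.9 FPKM over the 9 libraries. Its mean was 38.1 FPKM with PBS, which held no peritoneal fluid. The sum of 15 macrophage and B cell markers was 16.44 to 18.35 FPKM with TNBS PF, 15.3 to 17.35 with control PF and 14.65 to 15.97 with PBS. Cd14 carried that sum, at 12.0 to 15.6 FPKM. Of the 15, 13 stayed under FPKM 1 in all 9 libraries, and the B cell gene Ms4a1 was at 0 in all 9. Neither of the 2 tested was called between TNBS PF and control PF. Cd14 was higher by 0.19 with TNBS PF against PBS (adjusted p = 0.03), beside 7.8% of all tested genes. All 12 stromal markers, among them Thy1, Eng and Cd44, were expressed, and their sum was 1529 to 1552 FPKM with TNBS PF, 1608 to 1629 with control PF and 1626 to 1693 with PBS. Of these 12, 2 rose and 5 fell with TNBS PF against control PF, beside 5.15% and 5.45% of all tested genes. Those that rose were Cd44 by 0.21 (adjusted p = 0.000456) and Vcam1 by 0.12 (adjusted p = 0.0305). The largest falls were those of Pdgfrb by 0.39 (adjusted p = 0.000104), Pdgfra by 0.38 (adjusted p = 0.000235) and Ly6a by 0.32 (adjusted p = 0.000219). Col1a2 fell by 0.19 (adjusted p = 0.00487) and Prrx1 by 0.17 (adjusted p = 0.00214). Itgb1, the most abundant of the 12, differed by 0.08 (adjusted p = 0.081).

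Likeness was read from Pearson's correlation of log2 levels over the 9 libraries, which share their groups and depth. Genes with predicted or clone names were left out. Among the rest, the genes most like Tigit were Odc1 (r = 0.987), Psmd8 (0.986) and Mrto4 (0.982). Odc1, the first enzyme of polyamine synthesis, was at 74.9 FPKM with PBS, 76.7 with control PF and 89.3 with TNBS PF. The genes most like Pvr were Stbd1 (0.98), Adam9 (0.952) and Tmem74 (0.952), and those most like Nectin2 were Galk1 (0.973), Hibadh (0.963) and Sulf1 (0.961). Galk1, a galactose kinase, stood at 35.6, 41.9 and 40.7 FPKM in PBS, control PF and TNBS PF. These likenesses are descriptions over 9 libraries in 3 groups. Since the genes were picked by correlation over these same libraries, nothing is read from a like order of groups.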

How the data were processed

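The authors deposited 1 table of FPKM per gene for the 9 libraries, made from total RNA extracted with Trizol. The submitters' processing notes name cutadapt 1.15, a read trimmer, and the build mm10; no aligner, counter or strand setting is named in the sources used here. Fragments were recovered as FPKM times the summed exon length in GENCODE M21 (GRCm38), available for 21851 genes, and 97.2% to 97.3% of values under 1000 fragments came out whole within 0.01. The counts of fragments served for depth, counting error and 1 alternative test. The main test was limma 3.58.1 in R 4.3.3 with a mean-variance trend on log2(FPKM + 1), for genes at FPKM 1 or more in at least 3 libraries, with the 9 libraries in 1 fit and a threshold of 0.05 on p-values adjusted by Benjamini-Hochberg. Its script was tested on simulated data. The 8 genes, the gene lists and the marker lists were chosen with earlier results of these data known. All 8 genes were named. Of each list, up to 4 genes past the threshold per comparison were named by size of change. Where none passed, the one of smallest p was named, and of marker lists also the most abundant. The 3 genes most correlated with Tigit, Pvr and Nectin2 were named too, with predicted or clone names left out. Some genes of the lists are not reported here by name. Jak1, Vcam1, Col1a2, Prrx1, genes at 0 and other low or marker genes given as levels were named outside that rule, after their values were seen. Alternatives were other pseudocounts, filters, scalings and models, a replicate block, voom, and leaving out each library.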

Additional observations from a re-analysis of the deposited data

How the results depend on the processing

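Under 19 alternatives Nectin2 kept its direction and both calls. Counts of called genes of the set are given without Tigit, whose difference chose the set. Between TNBS PF and control PF 1 of the other 6 tested genes was called, Pvr. That call was lost with no filter, with no mean-variance trend, with the replicate block and without some single libraries, as given above. Between TNBS PF and PBS 2 of the 6 were called, and only the call of Pvr was lost under any alternative. Between control PF and PBS 1 of the 6 was called, Nectin2, under every alternative. Genes called between control PF and PBS numbered 227, and 103 with no filter, 117 with no trend and 374 with voom on recovered fragments. Leaving out 1 library gave 115 to 311 there, 661 to 1255 for TNBS PF against control PF (1117 with all 9) and 1148 to 1735 for TNBS PF against PBS (1758 with all 9).

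The replicate numbers were not taken as pairing the libraries, since the labels do not say what a number shares. Same-numbered libraries had correlations of deviations from -0.0978 to 0.0746, and 5 of 9 correlated best with their own number. These values do not settle whether the libraries were paired. The replicate block gave 906 called genes for TNBS PF against control PF, 1537 for TNBS PF against PBS and 169 for control PF against PBS, and Pvr then had an adjusted p of 0.0588 against control PF.

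Of calls between TNBS PF and control PF, 48.6% were higher, and 60.6% under median-ratio scaling. Between TNBS PF and PBS, 46.8% were higher, and 57.9% under median-ratio and 35.1% under TPM scaling. Directions that turned belonged to differences near 0 that passed no test. Pvr between control PF and PBS was -0.0058 with quantile normalization, -0.014 with TPM and -0.054 to 0.056 when 1 library was left out (-0.02 without control PF replicate 2). When 1 library was left out, Nectin1 ranged there from -0.10 to 0.014 (above 0 without control PF replicate 1) and Tigit from -0.0031 to 0.18 (below 0 without PBS replicate 1). Between TNBS PF and PBS, Cd274 ranged from -0.00015 to 0.068 (below 0 without PBS replicate 1) and Nectin1 from -0.011 to 0.077 (below 0 without PBS replicate 3). The cause was not tested. The coding-transcript lengths and the alternatives for list genes were added after seeing the data. Low counts limit Cd274 and Pdcd1lg2 most.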
